A study of Mus musculus with 18 samples.

Results

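The comparison described here asks how the response of mouse embryonic stem cells to 3 days without leukaemia inhibitory factor (LIF) differed when cyclosporin A (CsA) was present. For each gene it is a difference of differences on the log2 scale, the change between day 0 and day 3 with CsA minus the change between day 0 and day 3 without CsA, called the interaction. The cells of these groups were of the CGR8 line (strain 129P2/Ola), and total RNA was measured on Illumina BeadChips. The 4 groups were day 3 of LIF withdrawal with CsA, day 0 with CsA, day 3 without CsA and day 0 without CsA. They were chosen by the sample titles and hold 2 arrays each, which makes 8 of the 18 arrays of the series. The other arrays hold day 1 of both courses and ideltaCnAES cells, in which withdrawal of tetracycline induces deltaCnA, a constitutively active calcineurin. The labels give no dose of CsA and do not say whether, or for how long, the day 0 cells labelled with CsA had received it. Nor do they state where replicates came from, so the p-values rest on differences among samples that may be technical.

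Calcineurin is a phosphatase switched on by calcium and calmodulin. It strips phosphate from the NFAT transcription factors, which then enter the nucleus, and CsA bound to a cyclophilin blocks it. LIF acts through its receptor and STAT3 to hold mouse embryonic stem cells in the naive state, and without LIF the cells move towards the primed state of the epiblast, a step driven by FGF and ERK signalling.

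Values are log2 of background-corrected and quantile-normalized intensity, and a gene is detected on an array where its detection p-value is under 0.05. The 8 arrays had mean raw intensities of 297.8 to 404.3 and detected 40.99% to 44.07% of 46632 probes. Across genes, taken without claim of independence, r between replicates was 0.9922 to 0.9939. Of the 6 embryonic stem cell markers examined, Pou5f1, Sox2, Nanog, Zfp42 and Utf1 were detected on both arrays of every group. Tdgf1 was detected on 1 of 2 arrays of each day 3 group.

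Of 10692 genes tested, 1693 (15.8%) had a called interaction, that is, an adjusted p under 0.05 (limma, Benjamini-Hochberg). The interaction was positive, meaning a higher change with CsA, for 884 genes (8.27%) and negative for 809 (7.57%). With median scaling in place of quantile normalization the split was 949 positive and 538 negative. The interaction reached 2-fold for 375 of the positive and 371 of the negative genes. With 2 arrays a group the median standard error was 0.239 on the log2 scale. The count was 1006 without replicate 1 of day 3 with CsA, of which 973 were among the 1693, and 1814 without replicate 2 of that group.

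Most called genes had moved without CsA and moved less, or not detectably, with it. Across all genes, 3263 (30.5%) were called in the course with CsA, 1650 (15.4%) higher and 1613 (15.1%) lower at day 3, and 4199 (39.3%) in the course without CsA, 2027 (19%) higher and 2172 (20.3%) lower. Of the 884 positive genes, 661 fell without CsA, and of these 433 were not called with CsA, 166 also fell with CsA and 62 rose with CsA. Of the 809 negative genes, 625 rose without CsA, and of these 391 were not called with CsA, 181 also rose with CsA and 53 fell with CsA. The interaction shares its arrays with both courses, so these counts describe the shape of the difference and are no separate support for it. Among 1054 genes that changed by 2-fold or more without CsA and were detected in all 4 groups, the median change with CsA was 47.6% of the change without it. Among 540 genes chosen by a 2-fold change with CsA, the median change without CsA was 96.1% of the change with CsA. Choosing genes by their change in one course raises that course's values, so both medians are descriptions only.

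**Figure D1:**
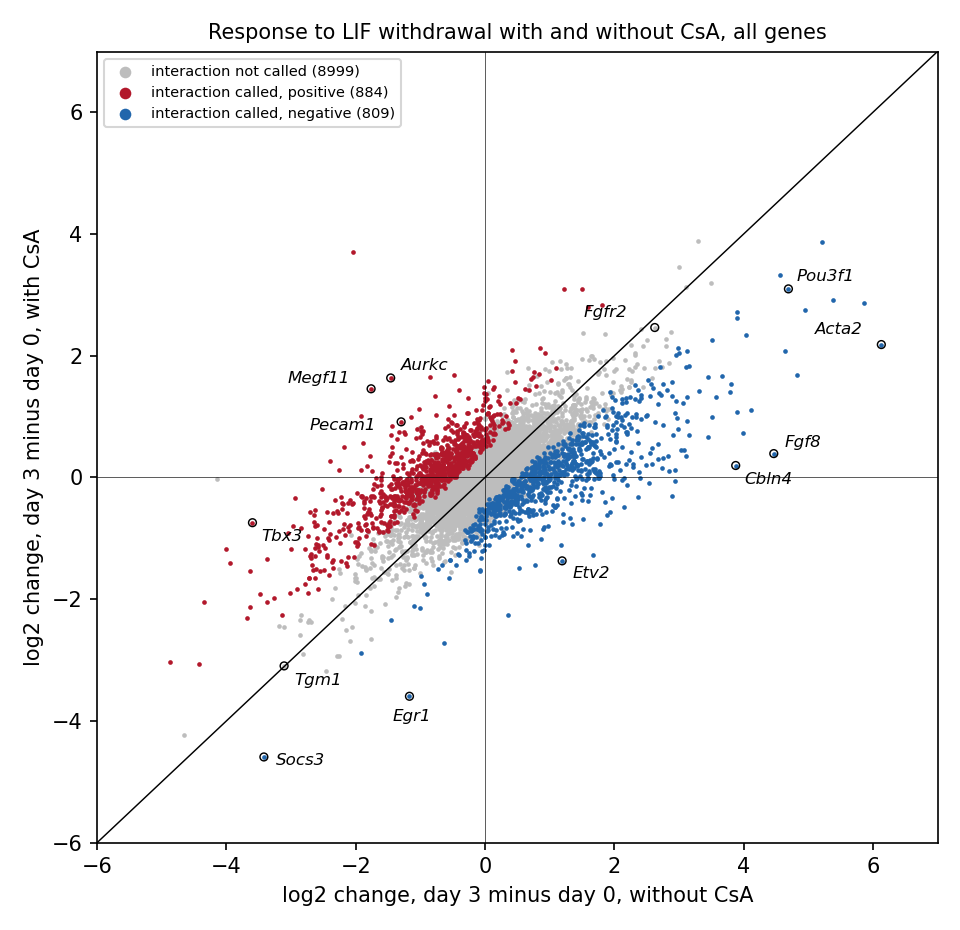
Each point is 1 of 10692 genes; the axes give the log2 change between day 0 and day 3 with CsA (vertical) and without CsA (horizontal), with the line of equal change. The 884 genes with a positive called interaction lie above the line and the 809 with a negative one below it, and Megf11, Aurkc and Cbln4 lie far from it while Fgfr2 and Tgm1 lie close to it.

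Among genes detected in each of the 4 groups, the highest interaction was that of Megf11, which encodes a multiple-EGF-domain cell surface protein. Megf11 had log2 intensities of 9.21 and 8.71 at day 3 with CsA and 7.56 and 7.46 at day 0 with CsA, against 5.70 and 5.53 at day 3 and 7.30 and 7.46 at day 0 without CsA. The arrays of the 2 day 0 groups overlapped, while both day 3 arrays with CsA lay above, and both without CsA below, every day 0 array. Its interaction was 3.22 ± 0.33 (SE), or 9.31-fold (adjusted p = 4.24e-07). Of its 3 other kept probes, 2 were called the same way (2.32 and 1.27) and the dimmest was not (0.47, adjusted p = 0.38).

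Aurkc, a kinase of the Aurora family best known from meiosis in oocytes and spermatocytes, also moved in opposite directions. It had 10.67 and 9.66 at day 3 with CsA and 8.63 and 8.44 at day 0 with CsA, against 6.93 and 7.15 at day 3 and 8.15 and 8.85 at day 0 without CsA. The day 0 groups overlapped again, and the day 3 groups lay on either side of them. The interaction was 3.09 ± 0.35, or 8.54-fold (adjusted p = 1.64e-06). Of the 5 marker genes of this interaction (Megf11, Aurkc, Tbx3, Cbln4 and Fgf8), 2 have a promoter in the RefSeq table used here (GRCm38.p6). Those of Aurkc and Cbln4 are printed to show the bases upstream of a gene with a positive and of one with a negative interaction. Capitals mark matches to GGAAA, the core to which NFAT factors bind, read on either strand (TTTCC on the printed strand). The sequence of Aurkc is chr7:6995135-6995384 on the plus strand, with 1 match that begins 59 bases before the start site, and that of Cbln4 is chr2:172043467-172043716 on the minus strand, with 0 matches.
Aurkc promoter: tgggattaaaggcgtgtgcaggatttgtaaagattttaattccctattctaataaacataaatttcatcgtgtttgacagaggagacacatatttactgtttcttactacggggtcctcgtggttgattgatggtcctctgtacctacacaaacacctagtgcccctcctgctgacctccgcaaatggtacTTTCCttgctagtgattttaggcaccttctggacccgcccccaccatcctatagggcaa
Cbln4 promoter: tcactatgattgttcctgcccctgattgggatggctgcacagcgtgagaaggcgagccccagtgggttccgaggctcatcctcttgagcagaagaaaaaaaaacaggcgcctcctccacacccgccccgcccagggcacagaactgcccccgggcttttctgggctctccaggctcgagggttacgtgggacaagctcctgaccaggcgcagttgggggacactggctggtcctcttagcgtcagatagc
GGAAA is in 55.6% of the 250-base promoters of the table, in 51.7% of those of the genes with a positive interaction and in 53.7% of those with a negative one, so its presence or absence here is a description of these letters only.

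Tbx3, a T-box factor of the naive state, fell in both courses but by unequal amounts. Its levels were 10.15 and 9.57 at day 3 with CsA and 10.76 and 10.44 at day 0 with CsA, against 6.38 and 6.51 at day 3 and 10.23 and 9.85 at day 0 without CsA. The day 3 arrays without CsA stood apart from all others, Tbx3 was higher with CsA at day 0 (0.56), and the interaction was 2.85 ± 0.24, or 7.23-fold (adjusted p = 3.83e-08). Zmym3, a zinc finger protein found in histone deacetylase complexes, had 11.73 and 11.38 at day 3 with CsA and 10.51 and 10.59 at day 0 with CsA, against 8.48 and 8.35 at day 3 and 10.18 and 10.47 at day 0 without CsA. The 4 groups of Zmym3 did not overlap, with the day 3 groups on either side of the day 0 groups, and its interaction was 2.92 ± 0.18 (adjusted p = 7.78e-10), although its other kept probe gave 0.18 and was not called.

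The 8 remaining genes of the 12 with the highest interactions all fell without CsA. Gjb1, the gap junction protein connexin 32, rose with CsA by 1.65 and fell by 0.86 without it, with 1 of 2 arrays detecting it at day 3 without CsA. Adgre5 (CD97), an adhesion receptor, rose by 0.50 with CsA and fell by 2.18 without CsA (interaction 2.68 ± 0.25), with a second probe at 0.41 and not called. Tnfsf13, a ligand of the tumour necrosis factor family also called APRIL, had an interaction of 2.67 ± 0.29, the carbohydrate sulfotransferase gene Chst8 of 2.44 ± 0.36 and the aspartic protease gene Napsa of 2.39 ± 0.31. For these 3 genes and for Tgfbi, a secreted matrix protein (2.33 ± 0.29), the change with CsA was not called (0.27, 0.56, 0.13 and -0.19). The unnamed transcripts 2210409E12Rik (2.83 ± 0.27) and 2410137M14Rik (2.54 ± 0.24) fell in both courses.

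Where a gene was undetected on every array of a group, only a bound can be given. Groups detected on 1 of 2 arrays entered at their means, and for genes with such a group "at least" is no strict limit. Crtac1, a cartilage matrix protein, had 8.03 and 7.32 at day 3 with CsA and 8.14 and 7.89 at day 0 with CsA, against 4.77 and 4.83, below detection, at day 3 and 7.68 and 7.80 at day 0 without CsA. Its interaction was at least 2.34, or at least 5.05-fold (adjusted p = 2.14e-06 in the fit). The aldehyde dehydrogenase gene Aldh3a1 (at least 3.25-fold) and Pramel14, of a gene family expressed in germ cells and preimplantation embryos (at least 2.98-fold), were likewise undetected at day 3 without CsA only. Psmc1, an ATPase subunit of the proteasome, had the highest computed bound (4.95 on the log2 scale), but its replicates were erratic. At day 1 they read 5.44 and 7.92 with CsA and 9.13 and 4.98 without CsA, so this bound is no firm minimum. Its probe read 8.50 and 8.35 at day 3 with CsA and was undetected at day 0 with CsA (4.78 and 4.65), against undetected at day 3 (4.62 and 4.79) and 7.91 and 5.59 at day 0 without CsA, so the replicates of the last group disagreed and the standard error was 1.27 (adjusted p = 0.00299).

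**Figure D2:**
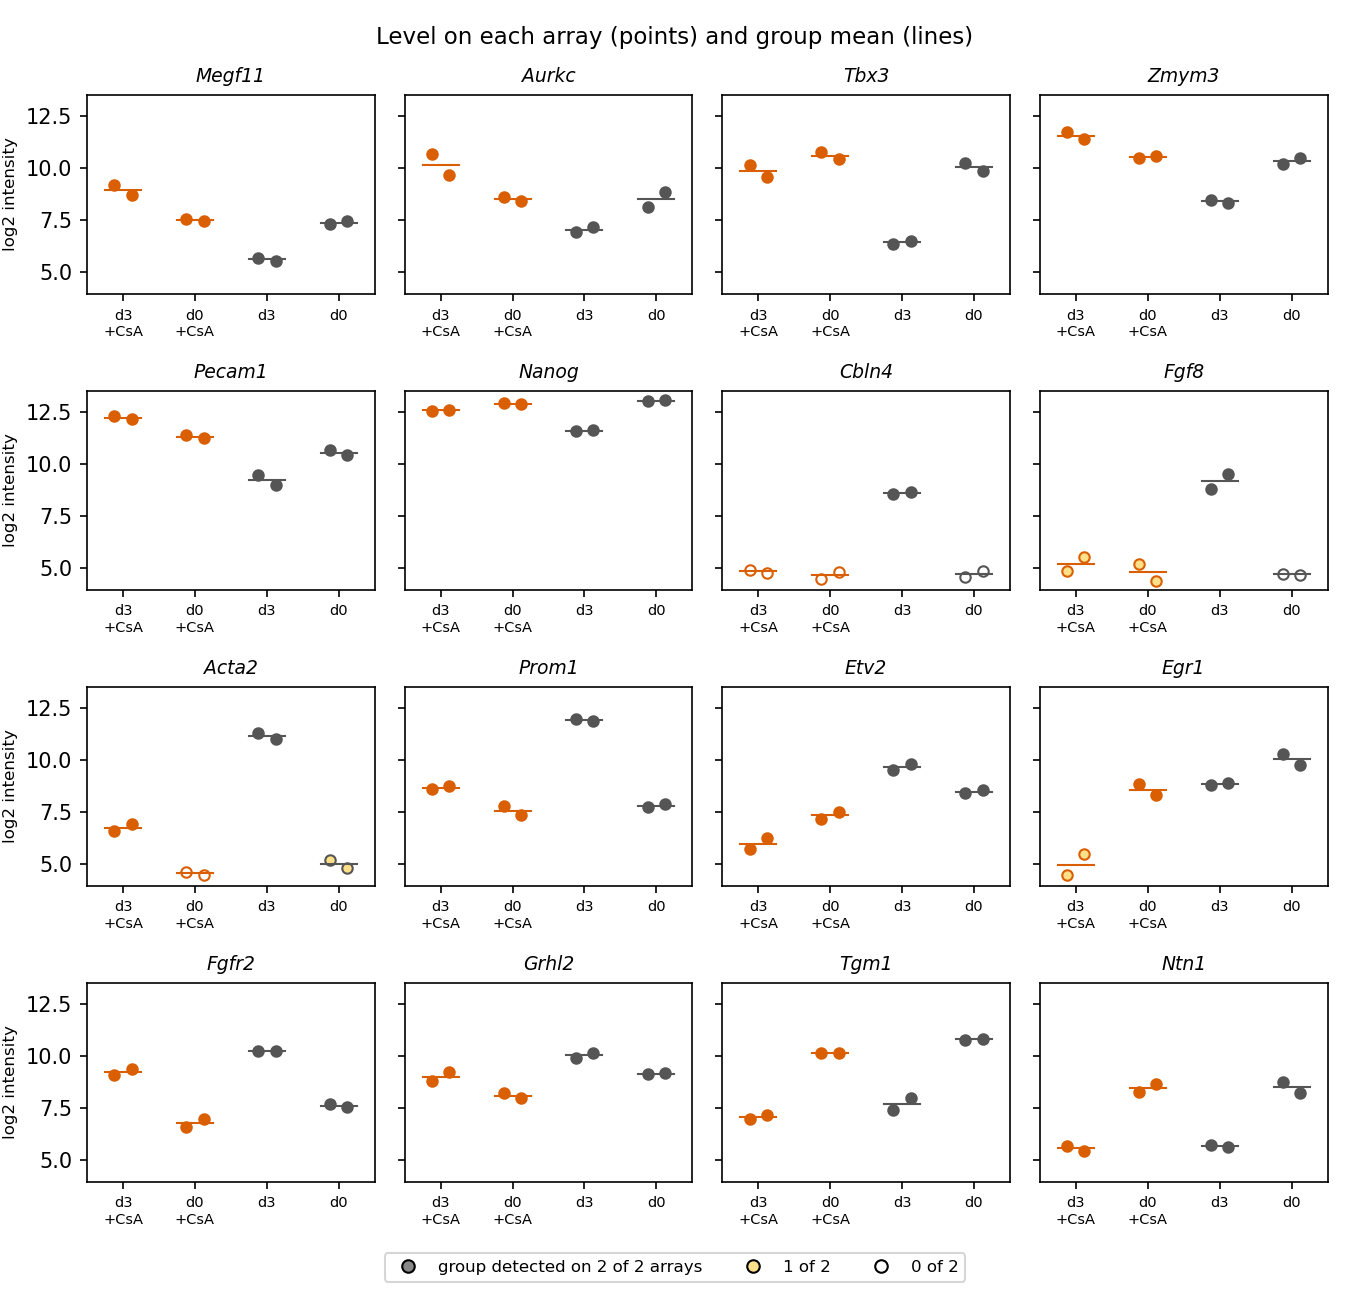
Log2 intensity of 16 genes on each of the 8 arrays (points) with group means (lines), in the order day 3 with CsA, day 0 with CsA, day 3 and day 0; filled points mark groups detected on 2 of 2 arrays, yellow 1 of 2 and open 0 of 2. In the top row, Megf11, Aurkc, Tbx3 and Zmym3 are lowest at day 3 without CsA; Cbln4, Fgf8, Acta2 and Prom1 are highest there; Fgfr2, Grhl2, Tgm1 and Ntn1 in the bottom row have like changes in both courses.

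Genes of the naive state lost less expression with CsA. Of 15 naive pluripotency genes measured, 14 had a positive called interaction and 0 a negative one, against 8.27% and 7.57% of all genes tested. Their median interaction was 1.61, against 0.02 over all genes. All 15 fell without CsA (median change -2.20), while with CsA 11 fell, 1 rose and the median change was -0.55.

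After Tbx3 the largest interactions of the list were those of Pecam1 and Klf4. Pecam1, an adhesion molecule on the surface of naive stem cells, rose with CsA (12.32 and 12.15 at day 3, 11.40 and 11.24 at day 0) and fell without it (9.49 and 9.01 at day 3, 10.66 and 10.43 at day 0). Its interaction was 2.21 ± 0.23, or 4.63-fold (adjusted p = 5.66e-07), and the day 0 arrays with CsA were already above those without CsA. Klf4, a Krüppel-like factor of the naive network, fell to 9.53 and 8.82 with CsA, against 10.85 and 10.57 at day 0 with CsA, and to 7.21 and 7.08 without CsA, against 10.82 and 10.74 at day 0 without CsA. All 3 kept probes of Klf4 gave an interaction above 2 (2.10 for the brightest, adjusted p = 2.01e-06).

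Tfcp2l1, a factor that LIF and STAT3 support, had an interaction of 1.83 ± 0.18. Esrrb, an orphan nuclear receptor, read 13.70 and 13.74 at day 3 with CsA and 14.24 and 14.01 at day 0 with CsA, against 12.27 and 12.06 at day 3 and 14.05 and 14.01 at day 0 without CsA (interaction 1.45 ± 0.16, adjusted p = 7.4e-07). The remaining called members ran between Dppa3 (1.15 ± 0.32) and Jam2 (1.73), with Klf2 (1.53 ± 0.20), Prdm14 (1.69 ± 0.24), Nr5a2 (1.39) and Zfp42 (1.35) among them. Klf5 was the exception. It fell by 0.89 with CsA and by 0.87 without CsA (both called), and its interaction was -0.01 ± 0.15 (adjusted p = 0.974).

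Of 12 core pluripotency genes measured, 3 were positive and 1 negative, against 8.27% and 7.57% of all genes, with a median interaction of -0.02 (0.11 with median scaling). Nanog, the core factor closest to the naive state, read 12.57 and 12.60 at day 3 with CsA and 12.91 and 12.90 at day 0 with CsA, against 11.57 and 11.64 at day 3 and 13.01 and 13.08 at day 0 without CsA. The day 3 arrays without CsA were the lowest by about 1 unit, and the interaction was 1.12 ± 0.15, or 2.17-fold (adjusted p = 1.92e-05). Pou5f1 (Oct4) had not changed detectably in either course, and its interaction was -0.04 ± 0.16 (adjusted p = 0.921). The smaller positive calls of Sox2 (0.61 ± 0.18) and Dppa2 (0.82 ± 0.27), and the negative call of L1td1 (-0.99 ± 0.24), a pluripotency-linked RNA-binding protein, each ended when a single array was left out. For L1td1 that was replicate 1 of day 3 with CsA (-0.56 without it), and for Sox2 and Dppa2 any 1 of 4 arrays (0.47 to 0.58 and 0.59 to 0.67).

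Of 17 LIF-STAT3 pathway genes measured, 1 was positive and 4 negative, against 8.27% and 7.57% of all genes, with a median interaction of -0.42. Socs3, the feedback inhibitor induced by STAT3, fell in both courses, to 6.82 and 7.01 with CsA, against 11.36 and 11.66 at day 0 with CsA, and to 8.22 and 7.68 without CsA, against 11.48 and 11.26 at day 0 without CsA. It thus fell further with CsA (interaction -1.17 ± 0.29, adjusted p = 0.00712), a call that ended without replicate 1 of day 3 without CsA (-0.90, adjusted p = 0.0541). Stat3 itself fell by 1.20 with CsA and by 1.39 without CsA, and its interaction was 0.19 ± 0.17 (adjusted p = 0.528). Il6st, which encodes gp130, the signalling subunit shared by LIF and related receptors, was the positive member (1.31 ± 0.31, adjusted p = 0.00539).

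On the negative side stood genes that LIF withdrawal raised to high levels and that stayed at or near the detection limit with CsA. Cbln4, a secreted synapse organiser of the C1q family, was undetected in 3 of the 4 groups. Its log2 intensities were 4.93 and 4.76 at day 3 with CsA and 4.47 and 4.83 at day 0 with CsA, against 8.59 and 8.65 at day 3 and 4.60 and 4.88 at day 0 without CsA. Only the 2 arrays of day 3 without CsA detected it, and at day 3 it was at least 11.4-fold lower with CsA than without CsA. The fitted interaction was -3.68 ± 0.25 (adjusted p = 2.42e-09), with no bound, since both day 0 groups lay below detection.

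Fgf8, an FGF ligand of the primitive streak and the isthmus, showed the same pattern. It had 4.88 and 5.52 at day 3 with CsA and 5.22 and 4.39 at day 0 with CsA, with 1 of 2 arrays detected in each group, against 8.82 and 9.53 at day 3 and 4.74 and 4.68, undetected, at day 0 without CsA. The fitted interaction was -4.07 ± 0.40 (adjusted p = 2.4e-07), and its dimmer probe was called too (-1.39). With the undetected day 0 group without CsA at the lowest detected level, the interaction was -3.64, or 12.5-fold. This is no strict bound, since both CsA groups were detected on 1 of 2 arrays.

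Fgf5, the FGF ligand that marks the primed epiblast, rose in both courses. It read 6.75 and 7.97 at day 3 with CsA and was undetected at day 0 with CsA (4.44 and 4.55), against 10.37 and 10.45 at day 3 and an undetected 4.57 and 4.53 at day 0 without CsA. At day 3 it was 8.30-fold lower with CsA than without CsA (adjusted p = 1.83e-09). The fitted interaction was -3.00 ± 0.35 (adjusted p = 2.02e-06), with no bound, since both day 0 groups lay below detection.

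Of 10 FGF ligands and receptors measured, 2 were positive and 3 negative, against 8.27% and 7.57% of all genes, with a median interaction of -0.19. The third negative member was Fgfbp1, a carrier that releases FGFs from the matrix (-1.72 ± 0.31), undetected in both CsA groups, so its fitted value has no bound. The positive members were Fgf4, the autocrine FGF of naive cells (1.62 ± 0.27, adjusted p = 0.000228), and Fgf10, a mesenchymal ligand (1.02 ± 0.26). The Fgf10 call ended without replicate 1 of day 0 without CsA (0.87) and with the mean of its probes (0.67). Fgfr2, the receptor of epithelia and trophoblast, rose alike in both courses and is described with the shared responses.

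Among 11 primed epiblast genes measured, 0 were positive and 3 negative, against 8.27% and 7.57% of all genes, and the median interaction was -0.35. Besides Fgf5 these were Sall2, a spalt-like zinc finger factor (-1.70 ± 0.35, adjusted p = 0.00167), and Pou3f1 (Oct6), a POU factor of the epiblast. Sall2 rose by 2.34 with CsA and by 4.03 without it. Pou3f1 rose by 3.10 with CsA and by 4.69 without it, but its 2 arrays of day 3 with CsA differed (8.48 and 9.94), and its interaction of -1.59 ± 0.47 (adjusted p = 0.0223) was -0.87 without replicate 1 of that group (adjusted p = 0.204). Without replicate 2 of day 0 with CsA, replicate 1 of day 3 or replicate 1 of day 0 the call also ended (adjusted p = 0.0979, 0.0691 and 0.0826), as it did with no detection filter (0.0572) and with no intensity trend (0.0582). Otx2, a homeobox factor that drives exit from the naive state, rose by 1.35 with CsA and 1.14 without it (interaction 0.21 ± 0.28, adjusted p = 0.698), and the epithelial factor Grhl2 had an interaction of 0.03. Of the 11 genes, 9 rose with CsA and 10 without it.

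The most uniform negative group was that of contractile and cytoskeletal genes known as targets of serum response factor (SRF). Of 17 measured, 13 were negative and 0 positive, against 7.57% and 8.27% of all genes tested, with a median interaction of -1.32. Without CsA 15 of the 17 rose and 1 fell. With CsA 5 rose and 1 fell.

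Acta2, smooth muscle actin, read 6.58 and 6.90 at day 3 with CsA and was undetected at day 0 with CsA (4.64 and 4.47), against 11.30 and 11.01 at day 3 and 5.22 and 4.83, detected on 1 of 2 arrays, at day 0 without CsA. Both day 3 arrays with CsA lay far below both without it, and Acta2 was 21.3-fold lower with CsA at that day (log2 -4.41, adjusted p = 1.4e-12). All 3 of its probes had a negative called interaction (-3.95, -1.27 and -2.25). The fitted value of the brightest has no bound, since it was undetected at day 0 with CsA. Tagln, transgelin of smooth muscle, was detected at day 3 without CsA only (7.22 and 7.21), and lay there at least 4.31-fold above the undetected 4.47 and 4.53 of day 3 with CsA.

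Acta1, skeletal muscle actin, had 6.17 and 6.07 at day 3 with CsA and an undetected 4.42 and 4.45 at day 0 with CsA, against 9.43 and 8.95 at day 3 and an undetected 4.38 and 4.36 at day 0 without CsA. Ccn1, a matricellular protein, was undetected at day 3 with CsA. With that group at the lowest detected level its interaction was -2.77, or 6.82-fold. This is no strict bound, since 1 of 2 arrays detected Ccn1 at day 0 with CsA. Pdlim3, a Z-disc protein, had 5.08 and 5.55 (1 array of 2 detected) at day 3 with CsA, against 8.87 and 8.76 without it. In genes detected throughout, the interaction was -2.12 ± 0.18 for tropomyosin gene Tpm1, -1.55 ± 0.29 for the focal adhesion protein vinculin (Vcl), -1.52 ± 0.27 for calponin 2 (Cnn2) and -1.32 ± 0.18 for Srf itself. Srf read 10.13 and 10.52 at day 3 with CsA and 10.25 and 10.15 at day 0 with CsA, against 11.71 and 11.88 at day 3 and 10.44 and 10.26 at day 0 without CsA. Zyx, zyxin of focal adhesions, which is not on the list, had the same course (8.55 and 9.03 at day 3 with CsA and 8.45 and 8.81 at day 0 with CsA, against 11.27 and 11.47 at day 3 and 8.65 and 8.63 at day 0 without CsA) and an interaction of -2.57 ± 0.24 (adjusted p = 1.6e-07).

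SRF binds a sequence called the CArG box. Its consensus, searched on both strands of the 250 bases before each start site, is in 1.4% of 27025 promoters of the RefSeq table (GRCm38.p6) and in 1.31% of those of the genes tested. It is in 2.54% of the promoters of genes with a negative interaction (16 of 630) and in 0.857% of those with a positive one (6 of 700). Of the 13 negative contractile genes, 11 have a promoter in the table and 4 of these hold a match. The list was made of known SRF targets, so this count describes the list and not the response to CsA. The 4 promoters are printed, chosen after their values were seen, because they show where the box lies in genes of this group, and capitals mark it. The coordinates are chr8:123894776-123895025 on the minus strand for Acta1, chr14:20929148-20929397 on the plus strand for Vcl, chr10:79988350-79988599 on the plus strand for Cnn2 and chr17:46556163-46556412 on the minus strand for Srf.
Acta1 promoter: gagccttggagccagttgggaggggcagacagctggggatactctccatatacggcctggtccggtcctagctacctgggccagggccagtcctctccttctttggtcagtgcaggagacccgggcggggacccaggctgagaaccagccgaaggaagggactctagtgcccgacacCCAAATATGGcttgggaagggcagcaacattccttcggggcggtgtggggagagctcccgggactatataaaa
Vcl promoter: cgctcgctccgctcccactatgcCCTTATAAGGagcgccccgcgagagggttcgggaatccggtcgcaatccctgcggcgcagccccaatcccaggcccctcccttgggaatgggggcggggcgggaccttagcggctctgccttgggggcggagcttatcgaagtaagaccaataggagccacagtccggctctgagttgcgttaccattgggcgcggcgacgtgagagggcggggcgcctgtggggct
Cnn2 promoter: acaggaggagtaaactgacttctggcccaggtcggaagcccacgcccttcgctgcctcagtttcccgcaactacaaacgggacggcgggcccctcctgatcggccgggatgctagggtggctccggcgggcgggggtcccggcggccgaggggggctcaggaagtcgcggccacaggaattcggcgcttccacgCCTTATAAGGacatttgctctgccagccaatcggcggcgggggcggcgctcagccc
Srf promoter: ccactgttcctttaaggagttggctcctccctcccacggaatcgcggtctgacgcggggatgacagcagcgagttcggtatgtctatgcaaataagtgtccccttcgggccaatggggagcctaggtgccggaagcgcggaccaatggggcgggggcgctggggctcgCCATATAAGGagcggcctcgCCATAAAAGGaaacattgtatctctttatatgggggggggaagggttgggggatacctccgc
The first base of the box, as printed, lies 73 bases before the start site in Acta1, 227 in Vcl and 56 in Cnn2, and the 2 boxes of Srf begin 82 and 62 bases before it.

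Immediate early genes, which respond to growth factors within minutes, had lower changes with CsA in 6 of 10 cases and higher ones in 0, against 7.57% and 8.27% of all genes, with a median interaction of -1.03. Egr1, a zinc finger factor downstream of ERK and SRF, fell to 4.47 and 5.48 at day 3 with CsA (detected on 1 of 2 arrays), against 8.83 and 8.31 at day 0 with CsA, and to 8.82 and 8.91 at day 3 without CsA, against 10.31 and 9.75 at day 0 without CsA. Its interaction was -2.43 ± 0.37, or 5.38-fold (adjusted p = 7.23e-05), and its day 0 level was already lower with CsA (-1.46). Ier3, an early response gene that is also a STAT3 target, fell by 2.27 with CsA and did not pass the test without it (0.35; interaction -2.62 ± 0.33). Jun, a subunit of AP-1, rose by 1.78 without CsA and had a change of 0.07, not called, with it. With the undetected day 0 group without CsA at the lowest detected level, the interaction of Jun was -1.56, or 2.94-fold. Both CsA groups were detected on 1 of 2 arrays, so this is no strict bound. Junb, Atf3 and Zfp36 were the other negative members, and the Atf3 call ended in 5 of 8 cases when a single array was left out (values of -1.16 to -0.53 in those cases).

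Feedback genes of the ERK pathway shared the direction. Of 11 measured, 6 were negative and 0 positive, against 7.57% and 8.27% of all genes, with a median of -0.92. Dusp6, the phosphatase that switches off ERK, read 7.61 and 8.89 at day 3 with CsA and 8.89 and 9.09 at day 0 with CsA, against 9.999 and 10.42 at day 3 and 8.89 and 9.13 at day 0 without CsA. Dusp6 rose without CsA and was called lower with it (-0.74, adjusted p = 0.0275). That fall came from replicate 1, since replicate 2 of day 3 with CsA lay within the range of the day 0 arrays with CsA. The interaction of Dusp6 was -1.94 ± 0.35 (adjusted p = 0.000473), and its other probe gave -2.27. Phlda1 (-1.60 ± 0.32), an ERK-responsive pleckstrin-homology gene, and the phosphatase gene Dusp5 (-1.12 ± 0.22) rose without CsA. Both were higher with CsA at day 0 (0.89 and 0.55) and lower with it at day 3 (-0.70 and -0.57), and Dusp5 also rose with CsA (0.49). Spry4, a sprouty inhibitor, fell by 2.65 with CsA and by 1.77 without it and was not called (interaction -0.88, adjusted p = 0.123).

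Most epithelial genes rose in both courses. Of 11 measured, 5 were negative and 0 positive, against 7.57% and 8.27% of all genes (median -0.59), while 8 rose with CsA and 10 without it. Cldn7, a claudin of tight junctions, was undetected at day 0 without CsA. With that group at the lowest detected level its interaction was -1.86, or 3.63-fold. This is no strict bound, since 1 of 2 arrays detected Cldn7 at day 0 with CsA. The keratin genes Krt8 (-1.59 ± 0.32) and Krt7 (-1.35 ± 0.29) followed. E-cadherin (Cdh1) rose by 0.80 with CsA and by 0.75 without it, with an interaction of 0.04 ± 0.36. Prom1, a membrane protein of apical protrusions, had the lowest interaction among genes detected in all 4 groups. It read 8.61 and 8.74 at day 3 with CsA and 7.78 and 7.36 at day 0 with CsA, against 11.98 and 11.89 at day 3 and 7.74 and 7.89 at day 0 without CsA. Its interaction was -3.01 ± 0.22, or 8.04-fold (adjusted p = 1.02e-08), with 1 further probe called (-1.53) and 1 not (0.20).

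Genes of the immunoproteasome and of antigen processing were negative in 8 of 12 cases and positive in 0, against 7.57% and 8.27% of all genes (median -0.96), with 6 rising with CsA and 11 without it. Psmb8, a catalytic subunit of the immunoproteasome, read 7.39 and 7.96 at day 3 with CsA and an undetected 4.85 and 4.68 at day 0 with CsA, against 10.33 and 10.37 at day 3 and 5.16 and 4.79, detected on 1 of 2 arrays, at day 0 without CsA. All 3 of its probes were called (-2.47, -2.41 and -1.45). The fitted value of the brightest has no bound, since it was undetected at day 0 with CsA. Tap2, a subunit of the peptide transporter, had an interaction of at least 3.93-fold. B2m, the light chain of class I molecules, read 9.05 and 8.85 at day 3 with CsA and 9.02 and 8.83 at day 0 with CsA, against 9.90 and 10.12 at day 3 and 8.74 and 8.35 at day 0 without CsA, and its interaction was -1.44 ± 0.22. Tap1, the partner of Tap2, had an interaction of -0.18 and was not called.

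Imprinted growth genes were negative in 5 of 9 cases and positive in 0, against 7.57% and 8.27% of all genes (median -0.57). Igf2, a fetal growth factor, read 7.29 and 7.55 at day 3 with CsA and 7.39 and 7.23 at day 0 with CsA, against 8.88 and 9.64 at day 3 and 7.60 and 7.56 at day 0 without CsA (interaction -1.57 ± 0.33, adjusted p = 0.00207). Ndn, a growth-restraining MAGE-family gene, had -1.24 ± 0.28. Dlk1, an inhibitor of adipogenesis (-1.01 ± 0.28), lost its call without replicate 1 of day 3 with CsA (-0.92) or replicate 2 of day 3 without CsA (-0.95).

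**Figure D3:**
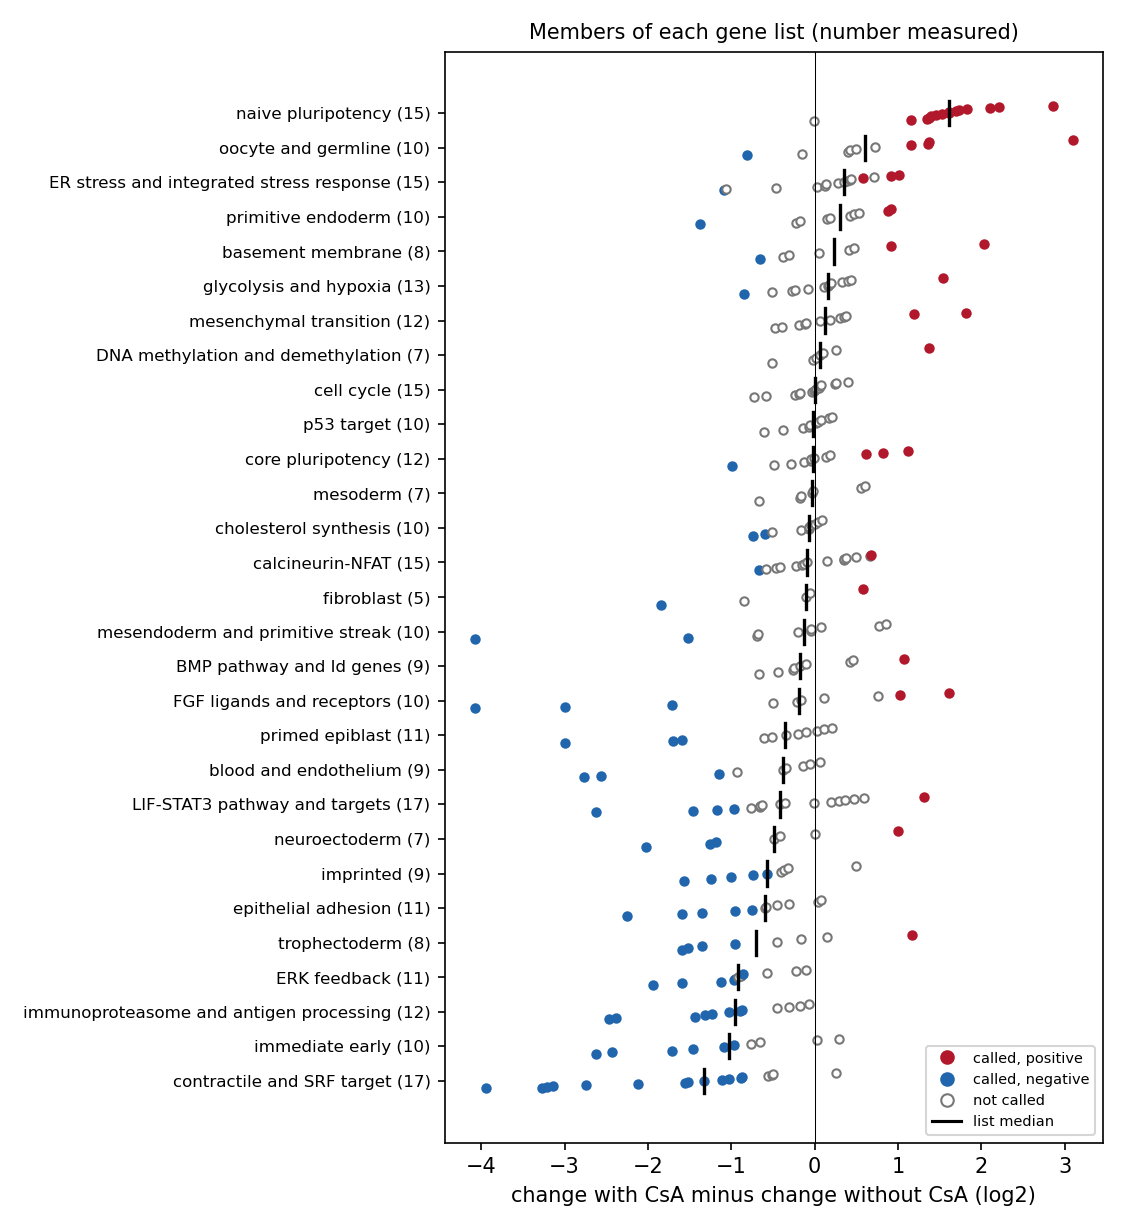
The horizontal axis gives the interaction (log2) of every measured member of each gene list with 5 or more measured members, with list medians as black bars. Naive pluripotency genes lie furthest right (median 1.61) and contractile and SRF target genes furthest left (median -1.32), while cell cycle, p53 target and mesoderm genes have no called member.

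Some genes of other lineages had their highest level at day 3 without CsA. Etv2, the ETS factor that starts the blood and endothelial lineages, fell with CsA and rose without it. It was detected on both arrays of all 4 groups, day 0 included. It had 5.71 and 6.25 at day 3 with CsA and 7.17 and 7.53 at day 0 with CsA, against 9.54 and 9.83 at day 3 and 8.41 and 8.57 at day 0 without CsA. The 4 groups did not overlap, and the interaction was -2.56 ± 0.27, or 5.91-fold (adjusted p = 6.2e-07). Flt1, a receptor for vascular endothelial growth factor, was detected only at day 3 without CsA (7.14 and 7.85), where it was at least 5.24-fold above day 3 with CsA, and Tal1, a blood stem cell factor, had -1.15 ± 0.25. These were the 3 negative members of 9 blood and endothelial genes measured, with 0 positive, against 7.57% and 8.27% of all genes. The cell cultures were measured in bulk, so more cells of a type and more RNA per cell cannot be told apart. The 9 blood and endothelial markers tested, of 15, averaged a log2 level of 5.94 at day 3 with CsA and 6.15 at day 0 with CsA, against 7.13 at day 3 and 6.42 at day 0 without CsA, and Runx1, Cdh5, Ptprc, Gata1 and the embryonic globin genes were not detected on both arrays of any group.

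Of 7 neuroectoderm genes measured, 1 was positive and 3 negative, against 8.27% and 7.57% of all genes. Nes, nestin of neural progenitors, was detected only at day 3 without CsA (6.39 and 6.81), at least 2.80-fold above day 3 with CsA. Zic1, a zinc finger factor of the neural plate, was also detected in that group only, and Sox11 rose by 2.26 with CsA and 3.51 without it (interaction -1.25 ± 0.23). Ncam1 was the positive member (1.00 ± 0.23), and Tubb3, a tubulin of neurons, had an interaction of 0.00. The 7 neuroectoderm markers tested, of 12, averaged 6.51 at day 3 with CsA and 6.12 at day 0 with CsA, against 7.37 at day 3 and 6.35 at day 0 without CsA, and Sox1, Neurog2, Neurod1, Hes5 and Olig2 were not detected on both arrays of any group. Prtg, protogenin of early neural tissue and mesoderm, had 7.61 and 7.90 at day 3 with CsA and 6.62 and 6.75 at day 0 with CsA, against 10.30 and 10.40 at day 3 and 6.24 and 6.66 at day 0 without CsA (interaction -2.83 ± 0.25, adjusted p = 6.42e-08).

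Among 10 mesendoderm and primitive streak genes, Fgf8 and Wnt8a (at least 2.19-fold) were negative and 0 were positive, against 7.57% and 8.27% of all genes. The Wnt8a call ended with the authors' series matrix values. Of 7 mesoderm genes 0 were called, against 15.8% of all genes, a share at which so short a list would hold few calls. Meox1, a homeobox factor of somites, was undetected in both day 3 groups. Bmp4 fell in both courses, by 2.94 with CsA and 2.26 without it (interaction -0.67, adjusted p = 0.169), while its dimmer probe was called at -0.71 (adjusted p = 0.0487). Among 8 trophectoderm genes the keratin genes Krt7, Krt8 and Krt18 and the factor Gata3 were negative and the AP-2 factor Tfap2c positive. That list had 62.5% of its measured members called, against 15.8% of all genes. With CsA, Gata3 passed detection on 1 of 2 arrays at day 3 and on 0 of 2 at day 0, so its fitted value has no bound. The calls of Gata3 (-1.52) and Tfap2c (1.17) ended without replicate 1 of day 3 with CsA (-1.39 and 0.89) or replicate 2 of day 0 with CsA (-1.36 and 0.80), and that of Tfap2c also without replicate 2 of day 3 without CsA (1.01). Among 10 primitive endoderm genes (30% called, against 15.8% of all genes) Dab2 was negative, with Col4a1 (0.92) and Gata6 (fitted value 0.88) positive. Gata6 was undetected in both groups without CsA, so its interaction has no bound, and at day 3 it was at least 1.83-fold higher with CsA. The calls of Col4a1 and Gata6 ended without any 1 of 4 arrays, with values of 0.64 to 0.76 for Col4a1 and 0.53 to 0.78 for Gata6. That of Gata6 also ended with median scaling, with series matrix values and with the 8 arrays alone. The trophectoderm markers, 8 of 13 tested, averaged 7.73 at day 3 with CsA and 7.16 at day 0 with CsA, against 8.3 at day 3 and 7.14 at day 0 without CsA. The primitive endoderm markers, 10 of 15 tested, averaged 6.84 and 6.45 with CsA, against 6.71 and 6.5 without CsA, at day 3 and day 0. Mesoderm markers, 7 of 15 tested, averaged 6.4 and 6.83 with CsA, against 6.4 and 6.85 without CsA, and fibroblast markers, 5 of 12 tested, 7.52 and 7.13, against 8.08 and 7.24. The part of such cells in the results was not tested.

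Other genes with the lowest interactions included 5 that moved in opposite directions. Sfn, the 14-3-3 sigma protein of epithelia, read 5.98 and 6.30 at day 3 with CsA and 7.33 and 7.51 at day 0 with CsA, against 9.29 and 9.85 at day 3 and 7.75 and 8.04 at day 0 without CsA (interaction -2.95 ± 0.27, adjusted p = 1.27e-07). Plekhg2 (-2.64 ± 0.22), Pdgfb, a platelet-derived growth factor (-2.55 ± 0.32), Slc5a5, the sodium iodide symporter (-2.52 ± 0.32, with a second probe at -0.86 and not called), and Tmem80, a transmembrane protein (-2.50 ± 0.27), also fell with CsA and rose without it. Pcdh1, a protocadherin, read 5.76 and 6.43 at day 3 with CsA and 5.91 and 6.39 at day 0 with CsA, against 8.51 and 8.59 at day 3 and 5.36 and 5.85 at day 0 without CsA, and its 2 probes gave -3.00 and -3.39. Syt1, a calcium sensor of synaptic vesicles, had an interaction of -2.68 ± 0.31, with 1 of 2 arrays detected at day 3 with CsA and at day 0 without CsA.

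In all, 115 genes moved in opposite directions. With CsA 62 rose and without CsA fell, and 53 fell with CsA and rose without it. All 115 had a called interaction, and the count was 51 without replicate 1 of day 3 with CsA, 61 without replicate 2 of day 0 with CsA and 76 with no detection filter. Twf2, a twinfilin that caps actin filaments, was one of them and was chosen after its values were seen. It had 11.41 and 11.18 at day 3 with CsA and 10.33 and 10.26 at day 0 with CsA, against 10.14 and 10.31 at day 3 and 11.29 and 11.44 at day 0 without CsA. The day 0 arrays of Twf2 differed with CsA (-1.07) as much as those of day 3 did the other way (1.07).

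Many responses did not differ by 2-fold between the courses. Of 1918 genes called the same way in both courses, 1531 had no called interaction. For 1315 of the 1918 (12.3% of genes tested) the 95% interval of the interaction lay within 2-fold in either direction. Of these, 664 rose and 651 fell in both courses, and 23 had a small called interaction. The count of 1315 was 839 without replicate 2 of day 0 with CsA. Over all 10692 genes tested the interval lay within 2-fold for 7702, so such an interval is not particular to these responses. A half-width of 0.50 at the median gene means that smaller differences could not be shown.

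Fgfr2 read 9.09 and 9.37 at day 3 with CsA and 6.57 and 6.96 at day 0 with CsA, against 10.23 and 10.26 at day 3 and 7.70 and 7.54 at day 0 without CsA. It rose by 2.46 with CsA and by 2.63 without it, from day 0 levels that were lower with CsA (-0.86), and the interaction was -0.16 ± 0.24 (adjusted p = 0.726). Cables1, a partner of cyclin-dependent kinases (-0.24 ± 0.26), the GRAM-domain gene Gramd3 (0.03 ± 0.32, detected on 1 of 2 arrays of each day 0 group) and 2610528J11Rik (0.03 ± 0.34) also rose alike. Kif21a, a kinesin, rose by 3.19 with CsA and by 3.49 without it at its brightest probe (interaction -0.30), but its second probe had a called interaction of -1.26.

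Tgm1, a transglutaminase of epithelial barriers, read 6.95 and 7.15 at day 3 with CsA and 10.13 and 10.16 at day 0 with CsA, against 7.42 and 7.97 at day 3 and 10.77 and 10.83 at day 0 without CsA. It fell by 3.10 with CsA and by 3.11 without it, and the interaction was 0.01 ± 0.24 (adjusted p = 0.986). Ntn1, the guidance cue netrin 1, fell by 2.91 with CsA and by 2.81 without it (interaction -0.09 ± 0.26). Pmel, a melanosome protein (0.28 ± 0.27), Htra1, a secreted serine protease (0.30 ± 0.33), and Igfbp7, a secreted binding protein of insulin-like growth factors (0.40 ± 0.24), fell by more than 2 units in both courses.

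**Figure D4:**
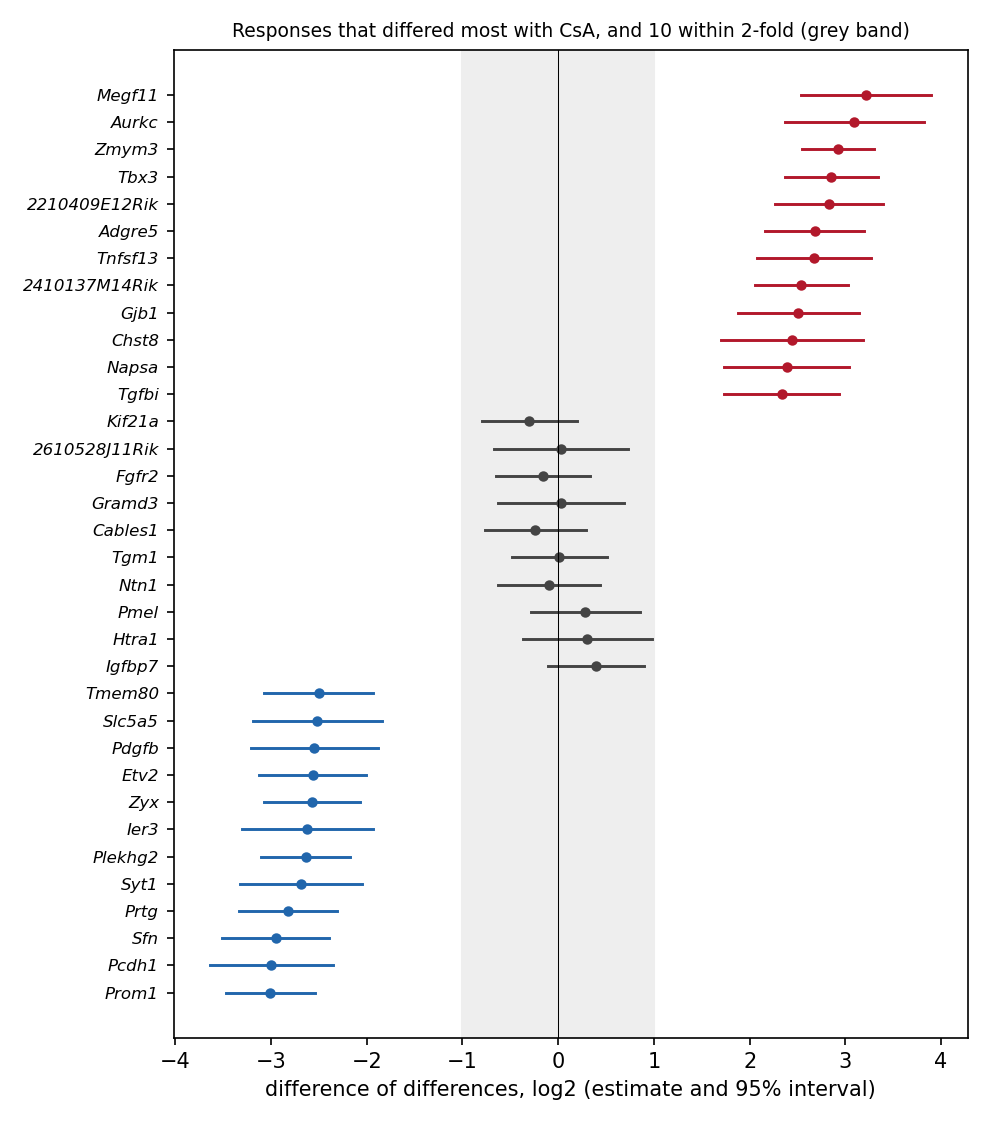
Interaction (log2) with its 95% interval for the 12 genes with the highest and the 12 with the lowest values among genes detected in all 4 groups, and for 10 genes with like responses; the grey band marks 2-fold in either direction. Megf11 (3.22) and Prom1 (-3.01) stand at the ends, and the intervals of the 10 genes in the middle lie inside the band.

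Some genes did not pass the test without CsA and changed with it. Of the positive genes 177, and of the negative genes 150, were called in the course with CsA and not in the other. Col9a2, a chain of type IX collagen, read 7.58 and 6.84 at day 3 with CsA and 5.96 and 5.60 at day 0 with CsA, against 6.11 and 5.59 at day 3 and 6.51 and 5.99 at day 0 without CsA (interaction 1.83 ± 0.35, adjusted p = 0.00074). Map7d3, a microtubule-binding protein, rose by 2.09 with CsA and had a change of 0.42 without it (1.67 ± 0.27). Parp14, an ADP-ribosyltransferase linked to STAT6 (-2.02 ± 0.32), and the AP-1 gene Junb (-1.46 ± 0.30) fell with CsA by 1.49 and 1.54. Their changes of 0.53 and -0.08 without CsA were not called.

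Of 15 measured genes of calcineurin and NFAT, 1 was positive and 1 negative, a share of 13.3% that lies near the 15.8% of all genes. Their median interaction was -0.09 (0.10 with median scaling). In each course 5 of the 15 rose, against 15.4% of all genes with CsA and 19% without it. The catalytic subunit gene Ppp3ca read 9.43 and 9.21 at day 3 with CsA and 8.90 and 8.69 at day 0 with CsA, against 8.68 and 8.58 at day 3 and 8.93 and 8.62 at day 0 without CsA. Its interaction was 0.66 ± 0.23 and missed the threshold (adjusted p = 0.0558). Ppp3cb (0.36 ± 0.19), Ppp3cc (0.36 ± 0.31) and the regulatory subunit gene Ppp3r1 (-0.15 ± 0.18) were not called.

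Among the NFAT genes, Nfatc4 rose alike in both courses, by 1.16 with CsA and 1.38 without it (interaction -0.22 ± 0.21). Nfatc3, the brightest of them, had -0.12 ± 0.19, Nfatc2 had -0.42 ± 0.24 and the osmotic stress factor Nfat5 had 0.49 ± 0.25. Nfatc1 was detected at day 3 without CsA only, at 5.12 and 5.20, and its interaction was not called. Rcan1, a calcineurin inhibitor that NFAT induces, read 9.50 and 9.57 at day 3 with CsA and 9.55 and 9.55 at day 0 with CsA, against 9.29 and 9.70 at day 3 and 9.74 and 9.58 at day 0 without CsA (interaction 0.15 ± 0.19, adjusted p = 0.671), while a dimmer probe of Rcan1 was called at -0.95 (adjusted p = 0.0347). The 2 calls of the list were Rcan3 (0.67 ± 0.16), a relative of Rcan1, and Gsk3b (-0.67 ± 0.17), a kinase that drives NFAT out of the nucleus, and both ended with the mean of each gene's probes (0.08 and -0.00). The Rcan3 call also ended without replicate 2 of day 0 with CsA (0.55), and the Gsk3b call without replicate 1 of day 3 with CsA (-0.57). Gsk3b was higher with CsA at day 0 (0.57, called), while its difference at day 3 (-0.10) was not called. Ppia, cyclophilin A, to which CsA binds, had -0.09 ± 0.13, the FK506-binding protein gene Fkbp1a -0.47 ± 0.16 and the NFAT kinase gene Dyrk1a 0.37 ± 0.41, none of them called.

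Genes of the cell cycle (0 of 15) and targets of p53 (0 of 10) had no called interaction, against 15.8% of all genes, a share at which lists of this length would hold few calls. They had median interactions of 0.01 and -0.02 (0.03 for p53 targets with median scaling). Among the p53 targets, Pmaip1, a BH3-only inducer of cell death, had -0.61 and the cyclin gene Ccng1 -0.38. Of the 15 cell cycle genes 8 were lower with CsA at day 0 and 0 higher, against 7.28% and 6.41% of all genes. The cyclin E genes had the largest values of the cell cycle list, with Ccne2 at -0.72 (adjusted p = 0.171) and Ccne1 at -0.58 (adjusted p = 0.0904, with a second probe called at -1.04). Of 10 cholesterol synthesis genes the oxidase genes Msmo1 (-0.74) and Sqle (-0.59) were negative and 0 positive, against 7.57% and 8.27% of all genes. Both calls ended with median scaling (-0.59 and -0.48) and without replicate 2 of day 3 without CsA (-0.52 and -0.51), that of Msmo1 also without replicate 1 of day 0 with CsA (-0.59) and that of Sqle without replicate 1 of day 3 with CsA (-0.49). Msmo1 was higher with CsA at day 0 (0.89, called), while its difference at day 3 (0.15) was not called. Of 15 genes of endoplasmic reticulum stress and the integrated stress response 3 were positive and 1 negative (median 0.35). Over all genes 8.27% were positive and 7.57% negative. Sel1l, an adaptor of protein degradation at the endoplasmic reticulum, was the one positive call kept in every setting (1.01 ± 0.20), while that of the CHOP gene Ddit3 (0.91 ± 0.28) ended without any 1 of 4 arrays (0.65 to 0.79). That of the chaperone gene Hsp90b1 (0.58 ± 0.15) ended without replicate 1 of day 3 with CsA (0.51) or replicate 2 of day 0 without CsA (0.44). On this list 9 of 15 genes were already higher with CsA at day 0 and 0 were lower, against 6.41% and 7.28% of all genes.

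Some lists had shares of called members near or under the 15.8% of all genes. These were DNA methylation (14.3%), glycolysis and hypoxia (15.4%), mesenchymal transition (16.7%) and BMP genes (11.1%), so their calls are no result about the lists. Among 10 oocyte and germline genes 4 were positive and 1 negative (median 0.61), against 8.27% and 7.57% of all genes. Khdc3, a maternal-effect gene, fell by 3.06 with CsA and by 4.42 without it (interaction 1.35 ± 0.22), and Spats1, a testis gene, was undetected at day 3 without CsA (at least 1.85-fold). Ddx4, a germ cell helicase, was the negative member (-0.81), a call that ended with median scaling (-0.78) and without any 1 of 6 arrays (-0.90 to -0.58). Tet2, a methylcytosine dioxygenase, was the 1 called member of 7 DNA methylation genes (1.37 ± 0.21). It read 8.24 and 8.45 at day 3 with CsA and 9.76 and 9.58 at day 0 with CsA, against 6.88 and 6.81 at day 3 and 9.58 and 9.49 at day 0 without CsA. Of 8 basement membrane genes 2 were positive and 1 negative, against 8.27% and 7.57% of all genes. The positive genes were nidogen 1 (Nid1) at 2.03 ± 0.26 and Col4a1, whose call ended when single arrays were left out, as given above. The laminin gene Lama5 was negative (-0.65). Of 13 glycolysis and hypoxia genes Pfkp, the platelet phosphofructokinase, was positive (1.53 ± 0.16) and the glucose transporter gene Slc2a1 negative (-0.84). The Lama5 and Slc2a1 calls ended with median scaling (-0.52 and -0.71) and without replicate 2 of day 0 with CsA (-0.58 and -0.63), that of Lama5 also without replicate 2 of day 3 without CsA (-0.61) and that of Slc2a1 without replicate 1 of day 3 with CsA (-0.66). Slc2a1 was higher with CsA at day 0 (0.73, called), while its difference at day 3 (-0.11) was not called. Of 12 mesenchymal transition genes 2 were positive, the protease gene Mmp9 (1.19 ± 0.27) and the repressor Zeb1, whose interaction of at least 2.80-fold did not pass the test with the mean of its probes (0.69, adjusted p = 0.0571). In the BMP list 1 of 9 was called (Bmp7), in the fibroblast list Dcn was negative and Fbln1 positive of 5, and in the 2-cell-like list the 1 member measured, Tcstv3, was positive (adjusted p = 0.0147). The Bmp7 call (1.07) and the Fbln1 call (0.58) each ended without any 1 of 6 arrays, with values of 0.79 to 1.11 and 0.44 to 0.61. The Tcstv3 call ended without replicate 1 of day 0 with CsA (1.33), replicate 2 of day 3 without CsA (1.37) or replicate 2 of day 0 without CsA (1.24).

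Because the interaction also contains the day 0 groups, the difference between them was set beside it. At day 0, 1463 genes (13.7%) differed with CsA, 685 higher (6.41%) and 778 lower (7.28%), and 365 of the 1693 genes with a called interaction (21.6%) were among them. Of the 24 genes with the highest and lowest interactions, 5 were called at day 0 and 19 were not. At day 3, 2092 genes (19.6%) were higher and 2111 (19.7%) lower with CsA. Here 757 of the 884 positive genes were higher with CsA and 1 was lower, and 725 of the 809 negative genes were lower and 1 was higher. These comparisons share arrays with the interaction.

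By day 1 the same difference of differences was called for 8 genes (0.0748%), 2 positive (0.0187%) and 6 negative (0.0561%), against 1693 at day 3, although 610 had an unadjusted p under 0.05 (limma). Both use the day 0 arrays, and the difference between the days was not tested. The positive genes were Tfcp2l1 (1.03 ± 0.18 at day 1 and 1.83 at day 3) and Slc13a2, a sodium-dicarboxylate cotransporter gene (1.42 at day 1 and 0.63, not called, at day 3). The negative genes were Fgf5, Cxcl12, Dcn, Gbp2b, Prss22 and Vrtn.

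Fgf5 stood out among them. It had log2 intensities of 5.35 and 5.34 at day 1 with CsA, against 8.70 and 8.40 at day 1 without CsA, and its interaction was -3.15 at day 1 and -3.00 at day 3. Megf11 and Aurkc had an interaction of 0.50 each at day 1, Tbx3 of 0.73, Cbln4 of -0.22 and Fgf8 of -1.70, none of them called. Among the 24 genes with the highest and lowest day 3 values, those at day 1 ran between -1.03 and 0.73, and 0 were called.

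**Figure D5:**
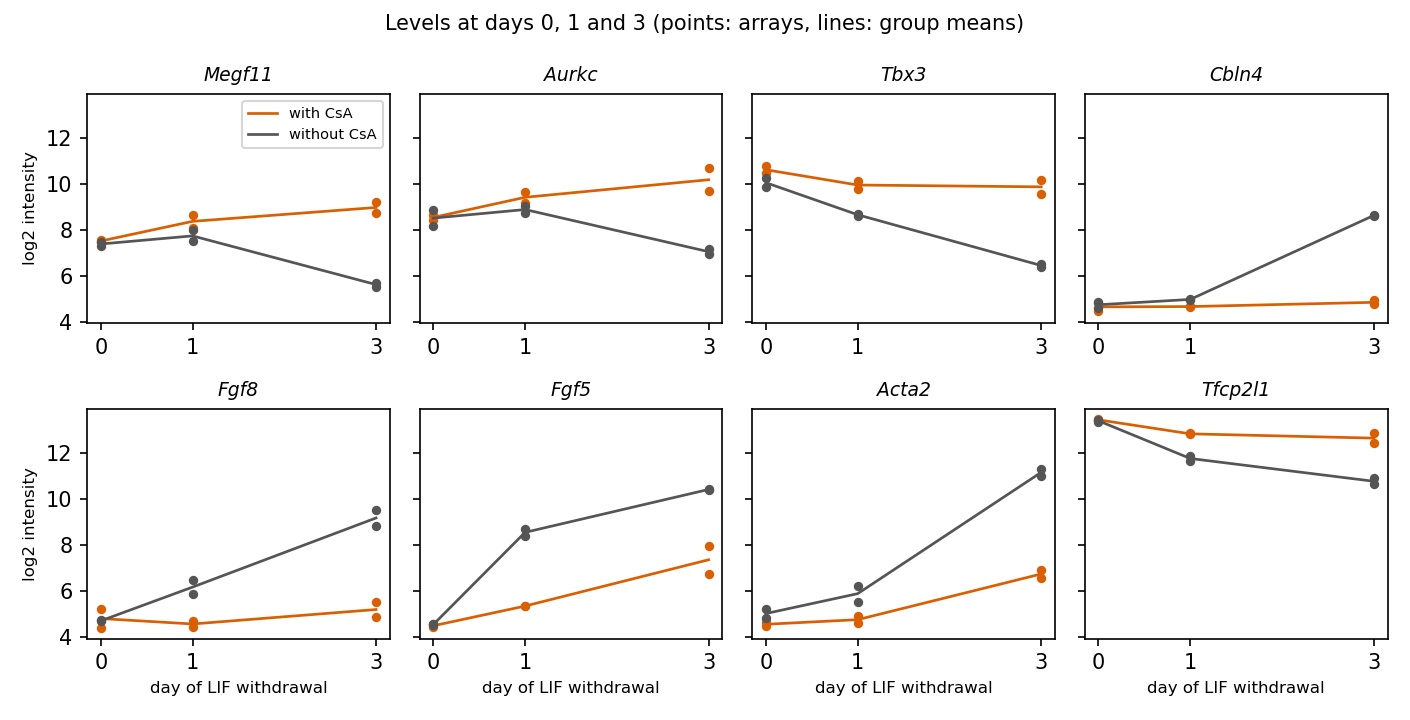
Log2 intensity of 8 genes at days 0, 1 and 3 of LIF withdrawal with CsA and without CsA (points are arrays, lines join group means). Fgf5 and Tfcp2l1 are clearly apart by day 1 and had a called interaction there (-3.15 and 1.03), whereas the other 6 genes did not, and all 8 are apart at day 3.

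The deltaCnA arrays hold none of the samples of the interaction. After 4 days of induction 371 genes (3.47%) were called, and 286 genes (2.67%) were higher and 85 (0.795%) lower than at day 0. Of the 884 positive genes, 58 were higher (6.56% of them, and 20.3% of the genes raised by deltaCnA) and 28 lower (3.17%, and 32.9% of the genes lowered). Of the 809 negative genes, 45 were higher (5.56%, and 15.7% of those raised) and 9 lower (1.11%, and 10.6% of those lowered). Of the 5 marker genes, 0 were called with deltaCnA, with changes of -0.48 for Megf11, -0.08 for Aurkc, 0.27 for Tbx3, -0.04 for Cbln4 and -0.08 for Fgf8. Of the 24 genes with the highest and lowest interactions, 3 were higher with deltaCnA and 1 lower. Prom1 was 1.39 higher and Napsa 1.18 lower with deltaCnA, and Igf2 was 2.75 higher.

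Detection and probes limit these counts. Of the positive genes, 46 were below detection in a group and have a bound and 23 have none, and of the negative genes 28 have a bound and 131 have none. Genes counted with a bound include some, such as Fgf8, whose bound is not strict because a group was detected on 1 of 2 arrays. Another kept probe existed for 574 called genes, and it was called in the same direction in 241 cases and in the other direction in 0.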

How the data were processed

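Expression in 18 samples of mouse embryonic stem cells (9 groups of 2 by their titles) was measured on Illumina BeadChips. The deposited table holds non-normalized probe intensity, already background-subtracted, as the values below 0 (31.15% to 33.75% of probes on the 8 arrays used here) show, with a detection p-value per probe and array, per the file headers. The authors' normalized intensity values in the series matrix, whose method is not given in the sources used here, served as an alternative. Background was corrected by normexp with the detection p-values (offset 16), followed by quantile normalization and log2 (limma 3.58.1, R 4.3.3).

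Probes with a detection p-value under 0.05 on both arrays of at least 1 of the 4 groups were kept (20922), and the brightest of them stood for each gene. Gene names came from GEO's platform annotation. Of the kept probes, 5354 had no single symbol. One linear model of the 9 group means was fitted over all 18 arrays (lmFit, eBayes with intensity trend), with Benjamini-Hochberg adjustment over 10692 genes and a threshold of 0.05. Errors are standard errors unless said otherwise, and 2 arrays a group limit the precision. In simulated data with these numbers of arrays, 34 of 50 genes changed by 1 log2 unit were recovered, and 49 of 50 changed by 2. Of 50 genes changed by 0.5 log2 units, 6 were recovered. The simulation changed 50 of 10692 genes at each size, whereas 1693 genes were called in the data. The Benjamini-Hochberg cut-off depends on how many genes change, so these counts do not give the recovery in the data. Where a gene was undetected on every array of a group, bounds used the lowest detected level on each array. A group detected on 1 of 2 arrays entered at its mean, so a bound that uses such a group is not strict.

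Named genes were the 12 highest and 12 lowest called interactions among genes detected in each group, the 4 highest and 4 lowest bounds, 5 markers, up to 3 called members of each list and direction (2 where none was called), the 5 most raised and 5 most lowered genes with like responses, the 3 highest and 3 lowest interactions of genes not called without CsA, and all calcineurin and NFAT genes. The comparison, its members and the 30 gene lists were chosen with earlier results of these data known, and genes named beyond these rules were chosen after their values were seen. Alternatives covered background correction, offset, scaling, filters, arrays fitted, probes and arrays left out. Promoters are the 250 bases before the first start site in RefSeq.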

Additional observations from a re-analysis of the deposited data

Results flagged for a closer look

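The change by day 3 differed between the courses with and without CsA for 1693 genes by the test of the interaction itself. The same test at day 1 called 8 genes. Of the 5354 kept probes with no single gene symbol, which no comparison above uses, 506 (9.45%) had a called interaction at day 3, 201 positive and 305 negative.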

How the results depend on the processing

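The 1693 calls of the day 3 interaction lay between 1315 (the 8 arrays alone) and 1857 (replicate block) under the 11 settings other than leaving out an array, and the split was 949 positive and 538 negative with median scaling, against 884 and 809. The replicate number as a block gave 1857 calls, which include all 1693; replicate differences of the groups correlated at r = 0.093 to 0.35, and with 2 numbers this does not show that the samples are paired. Under that block Ppp3ca (0.66) and Fkbp1a (-0.47) were called. The 8 calls at day 1 were 4 with series matrix values, 3 with no detection filter and 1 when each gene's probes were averaged. The 115 genes moving in opposite directions were 76 with no detection filter, where more genes enter the adjustment. Leaving out each of the 8 arrays in turn gave 1006 to 1814 calls of the day 3 interaction, 2 to 9 at day 1, 2059 to 3339 in the course with CsA, 3200 to 4245 in the course without CsA, 2928 to 4290 for CsA against none at day 3, 470 to 1532 at day 0, 366 to 392 with deltaCnA, 51 to 149 genes moving in opposite directions, 1371 to 1788 moving the same way and 839 to 1115 within 2-fold. The cause of these differences was not tested beyond the fewer arrays in each fit. Of 128 named genes 99 were called; 73 of these kept the call in every setting run, 24 lost it when an array was left out and 20 in another setting, and 0 changed sign. Beside the losses given with the genes, calls ended with no detection filter for Bmp7, Col4a1, Ddit3, Ddx4 and Dppa2, with no intensity trend for Col4a1, Ddit3 and Fbln1, with the 8 arrays alone for Atf3, Ddx4, Dlk1, Dppa2 and Sox2, with series matrix values for Atf3 and Ddx4 and with the mean of its probes for Col4a1. A slide block was not run, because the file headers name no slide.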
